A study of Mus musculus with 8 samples.

Results

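The Timm and Tomm genes, which code for translocases of the mitochondrial membranes and their small chaperones, were read across 8 RNA-seq libraries of mouse peripheral retina taken at postnatal day 12. They were selected by name as every symbol in the count tables that begins with Timm or Tomm followed by a digit. This gave 22 of 23284 genes: 6 inner-membrane genes, 10 outer-membrane genes and 6 small chaperones of the intermembrane space. The outer-membrane group includes Tomm34, a cytosolic co-chaperone. After a filter on low counts 20 of the 22 could be tested among 15106 genes. The groups were 4 TET-MYCN libraries and 4 Rb-null libraries. In both, the labels describe Cre recombinase driven by the alpha enhancer of Pax6, which is active in the peripheral retina, and retina that lacks the tumour suppressor gene Rb1, in the Rb-null mice through floxed alleles (Rblox/lox). The TET-MYCN mice carried in addition a Cre-dependent reverse tetracycline transactivator at Rosa26 (Rosa26LSL-RTTA) and a TRE-MYCN transgene. The design text names the floxed allele only for the Rb-null mice, and loss of Rb1 in the TET-MYCN group is given by the sample titles and genotype labels. No doxycycline treatment and no number of animals is stated in the labels, so p-values measure the spread between libraries, which may be partly technical. The comparison asks how transcripts differ, by the labels, between retina that lacks Rb1 with the transactivator and TRE-MYCN transgene and such retina without them.

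Nearly all mitochondrial proteins are made in the cytosol and imported. The TOM complex of the outer membrane, with receptors such as Tomm20, Tomm22 and Tomm70a and the channel Tomm40, is the common entry. Small Timm chaperones then shield hydrophobic precursors across the intermembrane space, and the TIM22 and TIM23 complexes place proteins in or across the inner membrane, with Timm44 tying the TIM23 channel to the matrix import motor. MYC proteins are known to bind and raise many genes of mitochondrial biogenesis in other cells, and photoreceptor inner segments are packed with mitochondria.

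Gene counts per library were 14872131 to 22873979, and 3 counts corresponded to 0.130 to 0.202 CPM (gene counts scaled to a common library size with TMM). Mycn had 201, 219, 272 and 276 CPM in TET-MYCN libraries 1 to 4, against 246, 339, 108 and 232 CPM in Rb-null libraries 1 to 4. Rb1 had 151, 179, 164 and 123 CPM in TET-MYCN libraries 1 to 4, against 184, 174, 147 and 138 CPM in Rb-null libraries 1 to 4. The groups overlapped for both genes. Neither checks the labels: transgene reads may not be counted at mouse Mycn, both groups are labelled as lacking Rb1, and the direction of each comparison rests on the labels. Of the rod markers 10 of 10 had a negative log2 fold change, with summed levels of 2864 to 6735 CPM in the TET-MYCN libraries and 4051 to 18394 CPM in the Rb-null libraries. Of the progenitor and mitosis markers 8 of 8 were positive, with 1599.8 to 2054 CPM in the TET-MYCN libraries and 822 to 1882 CPM in Rb-null. Cone and bipolar markers were all below 0 in log2 fold change (6 of 6 and 6 of 6), as were 5 of 6 Müller glia markers. No rod, progenitor or mitosis marker was at 0 in any library, and none of them passed the test. Lens markers summed to 8.44 to 43.1 CPM in the TET-MYCN libraries and 16.1 to 441 CPM in Rb-null. The lens marker Lim2, too low to test, had 3, 0, 3 and 0 counts in TET-MYCN libraries 1 to 4, against 4, 55, 29 and 7 counts in Rb-null libraries 1 to 4. In bulk tissue, fewer cells of a type and less RNA per cell cannot be told apart, and the part of cell makeup in the values below was not tested.

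No Timm or Tomm gene passed the test between the groups (an adjusted p under 0.05), and the groups of 4 libraries overlapped for each of the 20 tested members. The fitted differences were small and nearly all leaned the same way: 19 of 20 log2 fold changes were above 0, with a median of 0.14 and a range of -0.021 to 0.51. Timm8a1, a small chaperone, had the highest value and stood at 17.01 ± 3.02 CPM in the TET-MYCN libraries, against 11.9 ± 1.23 CPM in Rb-null (n = 4 each, where ± is the SD for levels and the SE for log2 fold changes here and below). Over all genes tested, 52.2% were above 0, with a median of 0.012. At an adjusted p under 0.05 (quasi-likelihood test of edgeR, adjusted by Benjamini-Hochberg across the whole table) 0 members were called as higher and 0 as lower, where 0.0596% of all genes were called, 0.053% higher and 0.00662% lower. At an unadjusted p under 0.05 the count was 1 member higher and 0 lower, against 8.06% of all genes higher and 7.72% lower. Groups that did not overlap were seen for 7.65% of all genes and for 0 members. The lean rested largely on 1 library: without TET-MYCN 3, 14 of 20 members were above 0, with a median of 0.038.

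**Figure D1:**
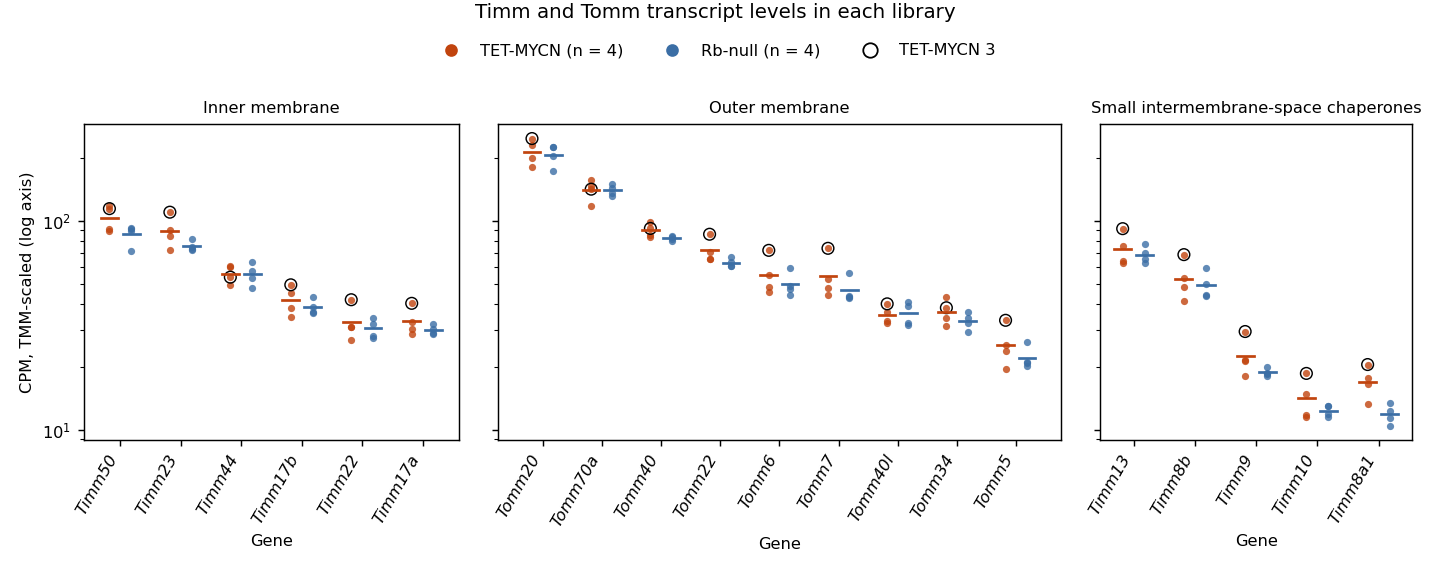
Level of each tested Timm and Tomm gene in CPM scaled by TMM (log axis) in each library, with TET-MYCN libraries left of Rb-null libraries, points for libraries, short lines for group means and a black ring for TET-MYCN 3. The groups overlap for every gene, and TET-MYCN 3 is the highest point for 14 of 20.

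Among themselves the members spanned a wide range of levels. Per kilobase of transcript, the small chaperone Timm13 was the most abundant, at 136 ± 24.8 CPM per kb in the TET-MYCN libraries and 127 ± 12.1 CPM per kb in the Rb-null libraries (SD, n = 4 each). Timm23, the channel subunit of the TIM23 complex, was at 115 ± 20.2 and 97.0 ± 5.64 CPM per kb in the TET-MYCN and Rb-null libraries, whereas the small chaperone Timm8b was at 102 ± 22.6 and 94.9 ± 14.1. Timm13 stood above the others by more than the SD in the Rb-null libraries but not in the TET-MYCN libraries, and Timm23 and Timm8b did not differ beyond their SD in either group. Tomm20 and Tomm6, with 77.2 ± 9.07 and 74.2 ± 9.97 CPM per kb in the Rb-null libraries, also could not be ordered, nor could Timm50, Tomm22 and Tomm40 at 51.2 to 57.0 CPM per kb there. At the low end of the tested members, Timm17a was at 4.53 ± 0.702 and 4.14 ± 0.201 CPM per kb in the TET-MYCN and Rb-null libraries. Its single annotated coding transcript is 7280 nucleotides long, and the transcript models behind the counts are not known, so this level per length is uncertain.

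The 2 members that were too low to test are Timm8a2, a close relative of Timm8a1, and Tomm20l, a relative of the receptor gene Tomm20. Timm8a2 had 2, 2, 2 and 4 counts in TET-MYCN libraries 1 to 4, against 1, 2, 1 and 2 counts in Rb-null libraries 1 to 4. Tomm20l had 5, 1, 2 and 3 counts in the TET-MYCN libraries and 4, 2, 3 and 4 in the Rb-null libraries. A difference in either gene was not detectable at this depth.

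The outer-membrane genes form the entry gate, and the cytosolic Tomm34 was counted with them. Of 9 tested, 8 had a log2 fold change above 0 and 1 below, with a median of 0.15 and a range of -0.021 to 0.23, and 0 passed. Tomm22, the central receptor of the complex, had 71.1, 65.6, 86.1 and 65.5 CPM in TET-MYCN libraries 1 to 4, against 60.4, 60.4, 63.3 and 66.8 CPM in Rb-null libraries 1 to 4. TET-MYCN 1 and 3 stood above all Rb-null libraries, and the other two TET-MYCN libraries lay inside the Rb-null range (log2 fold change 0.20 ± 0.11, adjusted p = 0.394). Tomm40, the beta-barrel channel, had 85.6, 83.7, 91.8 and 99.0 CPM in TET-MYCN libraries 1 to 4, against 83.5, 82.1, 80.2 and 84.6 CPM in Rb-null libraries 1 to 4. Here TET-MYCN 1, 3 and 4 were above every Rb-null library and TET-MYCN 2 was inside their range, and the difference was small (log2 fold change 0.12 ± 0.087, adjusted p = 0.517).

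Tomm5, Tomm6 and Tomm7 are the small subunits that help to assemble and steady the channel. Tomm7 had 47.8, 44.4, 73.7 and 52.8 CPM in TET-MYCN libraries 1 to 4, against 43.7, 43.2, 42.7 and 56.2 CPM in Rb-null libraries 1 to 4, so that 1 TET-MYCN library was above the Rb-null range and the others lay within it (log2 fold change 0.23 ± 0.17, adjusted p = 0.530). Tomm6 had the same form, and in Tomm5 TET-MYCN 2 also lay below the Rb-null range, and the log2 fold changes of Tomm5 and Tomm6 were 0.21 ± 0.17 and 0.15 ± 0.16 (adjusted p = 0.582 and 0.698). For each of these 3 genes TET-MYCN 3 was the highest library of its group and Rb-null 4 the highest of its group. Without TET-MYCN 3 their log2 fold changes were 0.053 for Tomm5, -0.0055 for Tomm6 and 0.057 for Tomm7. Exons of Tomm6 overlap those of other genes on both strands in the GENCODE M21 annotation, and those of Timm8b, Timm9, Timm13, Timm17b, Tomm40, Tomm40l and Tomm70a overlap an antisense gene. Whether the counting used strand is not given in the sources used here.

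The receptors for precursor proteins, Tomm20 and Tomm70a, were the members with the most reads and differed little. Tomm20, which reads the presequence of matrix proteins, was at 214 ± 30.4 CPM in the TET-MYCN libraries, against 207 ± 24.3 CPM in Rb-null (log2 fold change 0.048 ± 0.13, adjusted p = 0.900). Tomm70a, which takes over carrier proteins from cytosolic chaperones, was at 140.4 ± 16.7 CPM in the TET-MYCN libraries, against 140.0 ± 8.19 CPM in Rb-null (log2 fold change 0.0042 ± 0.11, adjusted p = 0.992). The sign of the Tomm20 value changed when TET-MYCN 3 or Rb-null 2 was left out and that of Tomm70a also with the scaling, so neither has a direction. Tomm34, a cytosolic co-chaperone named with the family, was at 36.7 ± 5.08 CPM in the TET-MYCN libraries, against 33.1 ± 3.03 CPM in Rb-null (log2 fold change 0.15 ± 0.12, adjusted p = 0.589). The coding sequence of Tomm20 had 4 processed pseudogene copies at 95% identity or more over at least 100 nucleotides, so its reads may be lost or shared where alignment was not unique.

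At the inner membrane all 6 genes had a log2 fold change above 0 over all 8 libraries, with a median of 0.12, and 0 passed. Without TET-MYCN 3, 5 of the 6 were above 0, with a median of 0.030. Timm50, which hands precursors from the TOM complex to the TIM23 channel, had 89.4, 91.7, 114 and 117 CPM in TET-MYCN libraries 1 to 4, against 92.2, 89.7, 72.0 and 91.5 CPM in Rb-null libraries 1 to 4. TET-MYCN 3 and 4 were above the Rb-null range and TET-MYCN 1 and 2 inside it, while Rb-null 3 was the lowest of all (log2 fold change 0.26 ± 0.13, adjusted p = 0.357). Leaving out Rb-null 3 gave 0.18, the lowest value over the fits without 1 library.

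Timm23, the channel subunit, had 84.6, 72.2, 109.8 and 90.7 CPM in TET-MYCN libraries 1 to 4, against 74.5, 73.1, 72.1 and 81.8 CPM in Rb-null libraries 1 to 4. TET-MYCN 1, 3 and 4 exceeded all Rb-null libraries, whereas TET-MYCN 2 had the next to lowest level of the 8 (log2 fold change 0.24 ± 0.13, adjusted p = 0.379). Timm23 has 5 processed pseudogene copies by the same criterion, and Timm17a and Tomm5 have 1 each, so their levels are uncertain. Timm22, the channel of the carrier pathway, was at 32.7 ± 6.402 CPM in the TET-MYCN libraries, against 30.5 ± 3.26 CPM in Rb-null, and Timm44, the anchor of the import motor, at 55.9 ± 5.49 CPM in the TET-MYCN libraries, against 55.4 ± 6.54 CPM in Rb-null. Their log2 fold changes were 0.10 ± 0.15 and 0.012 ± 0.12 (adjusted p = 0.797 and 0.977), and both changed sign when 1 library was left out, Timm22 to -0.041 without TET-MYCN 3 and Timm44 to -0.054 without Rb-null 2.

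Timm17a and Timm17b code for alternative subunits of the TIM23 complex. Timm17a had 32.7, 28.6, 40.2 and 30.5 CPM in TET-MYCN libraries 1 to 4, against 28.9, 29.1, 32.0 and 30.4 CPM in Rb-null libraries 1 to 4 (log2 fold change 0.13 ± 0.12, adjusted p = 0.644). Timm17b had 34.7, 38.4, 49.4 and 45.0 CPM in TET-MYCN libraries 1 to 4, against 36.2, 36.4, 38.7 and 43.1 CPM in Rb-null libraries 1 to 4 (log2 fold change 0.12 ± 0.13, adjusted p = 0.706). In both, TET-MYCN 3 was the highest library, and another TET-MYCN library was the lowest of all 8.

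The small chaperones of the intermembrane space work as hexamers, Timm9 with Timm10 and Timm8 proteins with Timm13. All 5 tested genes had a log2 fold change above 0 over all 8 libraries, with a median of 0.20, and 3 of 5 without TET-MYCN 3, with a median of 0.046. Timm8a1, the mouse counterpart of the gene mutated in human deafness-dystonia syndrome, had 16.5, 13.2, 20.5 and 17.8 CPM in TET-MYCN libraries 1 to 4, against 12.3, 13.4, 10.5 and 11.4 CPM in Rb-null libraries 1 to 4. TET-MYCN 1, 3 and 4 were above every Rb-null library, and TET-MYCN 2 was just below the highest, Rb-null 2. Its log2 fold change of 0.51 ± 0.16, adjusted p = 0.197 (unadjusted p = 0.00835, edgeR's quasi-likelihood test) gave it the smallest p of the family and rank 640 of 15106 genes. This is the rank of the member with the smallest p of 20 tested, and such a choice by itself favours a high rank. The log2 fold change of Timm8a1 lay between 0.41 and 0.61 when each library was left out in turn, and the adjusted p over all alternatives lay between 0.0719 and 0.577. A further GENCODE gene, Gm9797, is nearly identical to Timm8a1 by the criterion given for Tomm20, so reads of both may be shared or lost.

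Timm9 had 21.5, 18.1, 29.5 and 21.3 CPM in TET-MYCN libraries 1 to 4, against 18.5, 18.2, 18.6 and 20.1 CPM in Rb-null libraries 1 to 4. Again TET-MYCN 1, 3 and 4 were above the Rb-null range, but TET-MYCN 2 was the lowest of the 8 libraries (log2 fold change 0.26 ± 0.15, adjusted p = 0.430). Its partner Timm10 had 11.6, 11.8, 18.6 and 14.9 CPM in TET-MYCN libraries 1 to 4, against 11.5, 12.0, 13.0 and 13.0 CPM in Rb-null libraries 1 to 4, with TET-MYCN 3 and 4 above the Rb-null range and TET-MYCN 1 and 2 inside it (log2 fold change 0.20 ± 0.17, adjusted p = 0.595). Without TET-MYCN 3 the log2 fold changes were 0.11 for Timm9 and 0.046 for Timm10. Timm8b had 48.1, 41.3, 68.8 and 53.2 CPM in TET-MYCN libraries 1 to 4, against 49.6, 44.0, 43.7 and 59.4 CPM in Rb-null libraries 1 to 4, with 1 TET-MYCN library above and 1 below the Rb-null range (log2 fold change 0.10 ± 0.17, adjusted p = 0.812). Timm13, the partner of the Timm8 proteins, was at 73.5 ± 13.4 CPM in the TET-MYCN libraries, against 68.9 ± 6.58 CPM in Rb-null (log2 fold change 0.094 ± 0.14, adjusted p = 0.791). Timm8b and Timm13 turned to -0.049 and -0.029 without TET-MYCN 3, so they have no direction here.

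**Figure D2:**
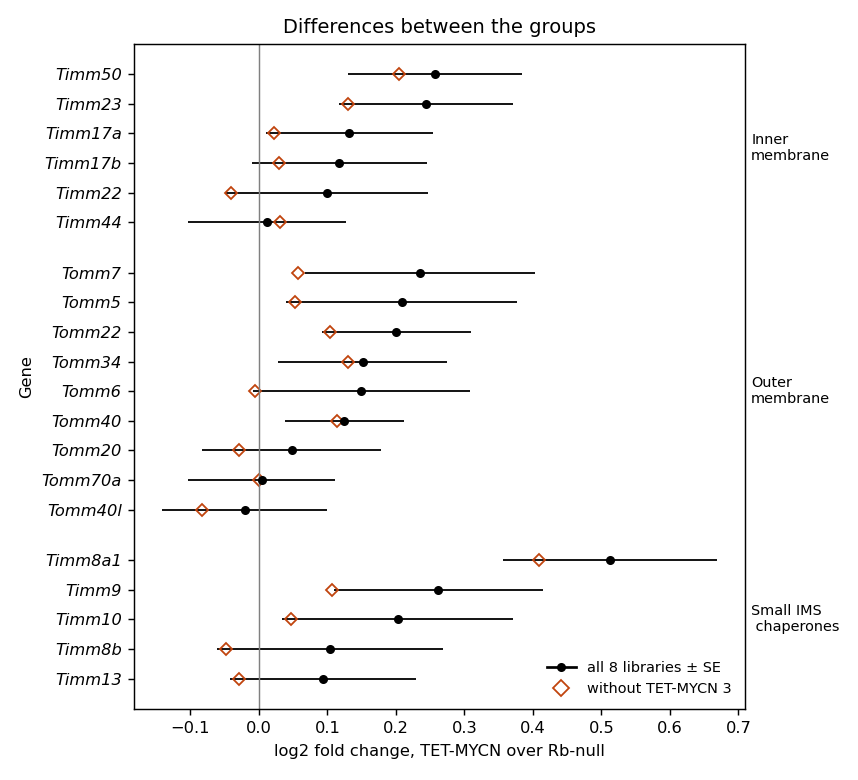
Log2 fold change of TET-MYCN over Rb-null for each tested gene over all 8 libraries (black points, bars are ± SE) and without TET-MYCN 3 (open diamonds), by compartment. Timm8a1 lies farthest from 0 in both fits, and without TET-MYCN 3 14 of 20 values are above 0.

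Because MYC proteins bind the E-box, the promoters of the family were searched for its letters, CACGTG, which read the same on both strands. The RefSeq promoter table (GRCm38.p6, 250 bases before to 50 after each start) held 20 of the 22 members in 22 windows, without Tomm40l and Tomm7. The E-box was in the windows of 5 members, Timm8a1, Timm9, Timm10, Tomm20 and Tomm20l, and in 7.15% of all 32851 windows in the table. A pair of further motifs of promoters of mitochondrial genes were searched on both strands, and neither overlaps the E-box in its letters. For NRF1 only the exact palindromic form of the motif was searched, and it was in 0 of the 22 windows and in 0.971% of all. Other forms of the NRF1 motif were not searched, so this 0 cannot show that the windows, that of Tomm20 included, lack them. The ETS motif CCGGAAG was in windows of 7 members (Timm8a2, Timm8b, Timm10, Timm23, Tomm22, Tomm34 and Tomm70a) and in 8.86% of all. A match describes the letters of a window and is not a binding site. The windows of the 4 tested members with an E-box are shown 5′ to 3′ on the strand of the gene, with each E-box in capitals. They lie at chrX:134541621-134541920 (minus strand) for Timm8a1, chr12:71136626-71136925 (minus strand) for Timm9, chr2:84826771-84827070 (plus strand) for Timm10 and chr8:126945872-126946171 (minus strand) for Tomm20.
Timm8a1: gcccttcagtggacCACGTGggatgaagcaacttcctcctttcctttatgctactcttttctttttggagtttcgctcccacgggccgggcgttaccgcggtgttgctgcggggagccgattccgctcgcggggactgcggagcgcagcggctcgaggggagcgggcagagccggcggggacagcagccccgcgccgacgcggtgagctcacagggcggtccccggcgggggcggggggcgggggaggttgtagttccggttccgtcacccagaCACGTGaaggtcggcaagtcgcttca
Timm9: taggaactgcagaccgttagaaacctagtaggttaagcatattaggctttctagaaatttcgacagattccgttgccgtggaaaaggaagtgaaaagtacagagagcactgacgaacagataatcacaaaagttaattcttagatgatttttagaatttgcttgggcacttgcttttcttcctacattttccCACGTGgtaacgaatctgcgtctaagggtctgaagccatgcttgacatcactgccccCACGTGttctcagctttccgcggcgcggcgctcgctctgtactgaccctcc
Timm10: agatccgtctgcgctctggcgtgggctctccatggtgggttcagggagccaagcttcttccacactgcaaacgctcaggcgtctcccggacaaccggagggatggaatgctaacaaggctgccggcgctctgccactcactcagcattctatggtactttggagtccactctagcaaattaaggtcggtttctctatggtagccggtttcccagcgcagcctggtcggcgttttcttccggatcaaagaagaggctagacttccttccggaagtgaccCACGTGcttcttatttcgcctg
Tomm20: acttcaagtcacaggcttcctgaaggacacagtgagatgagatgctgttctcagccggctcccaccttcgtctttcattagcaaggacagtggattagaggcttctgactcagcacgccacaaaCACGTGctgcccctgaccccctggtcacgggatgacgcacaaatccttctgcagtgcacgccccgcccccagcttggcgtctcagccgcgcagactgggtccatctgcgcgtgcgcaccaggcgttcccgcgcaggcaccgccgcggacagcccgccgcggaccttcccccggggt
The first and second of these windows hold 2 E-boxes each, and the others 1. The same 4 genes had log2 fold changes of 0.51, 0.26, 0.20 and 0.048 in that order. The other tested members with a window, none with an E-box, had values from 0.0042 (Tomm70a) to 0.26 (Timm50). Among them the channel genes Timm23 and Tomm40 had 0.24 and 0.12, and Tomm5 had 0.21. A link between E-boxes and these values was not tested.

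Ratios of related genes within a library do not depend on how libraries are scaled, and 3 pairs were compared (exact permutation test, two-sided, 70 arrangements of the libraries, with a smallest possible p of 0.0286, adjusted over the 3 pairs). The ratio of Timm8a1 to Timm8b was 0.343, 0.321, 0.298 and 0.335 in TET-MYCN libraries 1 to 4, against 0.249, 0.304, 0.240 and 0.193 in Rb-null libraries 1 to 4. The lowest ratio of each group was in TET-MYCN 3 and in Rb-null 4, where levels went with transcript length, as given below. The transcripts differ in length, at 1421 nucleotides for Timm8a1 and 518 for Timm8b, and the part of length in this ratio was not tested. The TET-MYCN ratios were close to each other, and all but that of TET-MYCN 3 were above every Rb-null ratio. On the log2 scale it averaged -1.63 ± 0.088 in the TET-MYCN libraries and -2.04 ± 0.27 in the Rb-null libraries (log2 ratio, SD, n = 4 each), a difference of 0.41 ± 0.14 (SE; p = 0.0571, adjusted p = 0.171, exact permutation test). For Tomm40 over Tomm40l, its less abundant relative, it averaged 1.34 ± 0.10 in the TET-MYCN libraries and 1.20 ± 0.19 in the Rb-null libraries (log2 ratio, SD, n = 4 each), a difference of 0.14 ± 0.11 (SE; p = 0.200, adjusted p = 0.300, exact permutation test). Tomm40l itself had 32.6, 33.0, 40.0 and 36.5 CPM in TET-MYCN libraries 1 to 4, against 31.9, 32.5, 40.8 and 39.0 CPM in Rb-null libraries 1 to 4, with every TET-MYCN library inside the Rb-null range (log2 fold change -0.021 ± 0.12, adjusted p = 0.957). For Timm17a over Timm17b it averaged -0.34 ± 0.20 in the TET-MYCN libraries and -0.36 ± 0.10 in the Rb-null libraries (log2 ratio, SD, n = 4 each), a difference of 0.014 ± 0.11 (SE; p = 0.943, adjusted p = 0.943, exact permutation test). None of the 3 pairs passed.

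**Figure D3:**
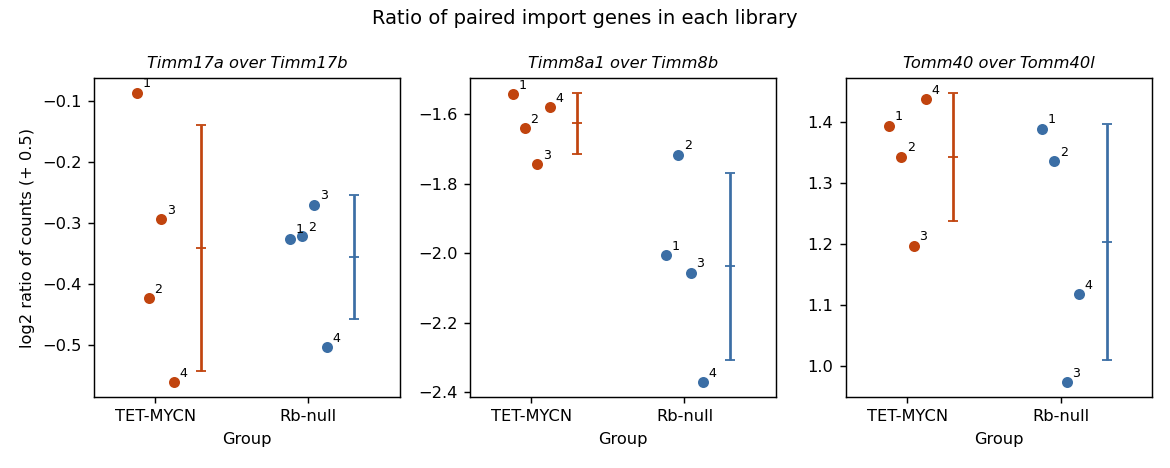
Log2 ratio of counts (with 0.5 added to each) of 3 pairs of related import genes in each library, numbered by library, with the mean ± SD of each group beside the points (n = 4). The groups overlap in all 3 panels, and for Timm8a1 over Timm8b 3 of 4 TET-MYCN libraries lie above all Rb-null libraries.

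What the members shared most plainly was a single high library. TET-MYCN 3 had the highest level of the 8 libraries for 14 of 20 members and the lowest for 0, where it was the highest for 22.0% of all genes tested. The summed level of the inner-membrane genes was 328, 311, 409 and 375 CPM in TET-MYCN libraries 1 to 4, against 317, 304, 310.0 and 335 CPM in Rb-null libraries 1 to 4. That of the outer-membrane genes was 730.2, 668, 824 and 674 CPM in TET-MYCN libraries 1 to 4, against 669, 627, 702 and 721 CPM in Rb-null libraries 1 to 4. That of the small chaperones was 162, 147, 229 and 183 CPM in TET-MYCN libraries 1 to 4, against 157, 150.1, 156 and 181 CPM in Rb-null libraries 1 to 4. In each of the 3 compartments TET-MYCN 3 had the highest sum, and TET-MYCN 2 lay inside the Rb-null range or below it.

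The excess in TET-MYCN 3 went with transcript length. Relative to the mean of the other TET-MYCN libraries, TET-MYCN 3 was higher by a median of 0.54 on the log2 scale for the 7 members with transcripts of up to 1000 nucleotides, and by 0.29 for the 13 longer ones. Tomm7, at 1125 nucleotides just past that length, had the largest excess. Values were 0.61 for Tomm7, 0.55 for Timm10 and 0.55 for Tomm5, and the value was -0.070 for Timm44. Over all tested genes with a known length the medians were 0.47 for 907 short and -0.016 for 12194 longer transcripts, and TET-MYCN 3 was the highest library for 62.1% of the short and 18.4% of the longer ones. Across the 20 members the excess and log2 length had Pearson's r of -0.58 and Spearman's rho of -0.70, and across 13101 genes r was -0.51 and rho -0.58. These are descriptions across genes that share the same libraries, and genes are not independent replicates. Rb-null 4 leaned the same way within its group, with medians of 0.23 for the short and 0.12 for the longer members. Over all tested genes with a known length its medians were 0.20 for short and -0.0030 for longer transcripts. In both libraries the median of the longer members was above that of all longer genes. Lengths within this class were not matched between the members and all genes, and the cause was not tested.

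**Figure D4:**
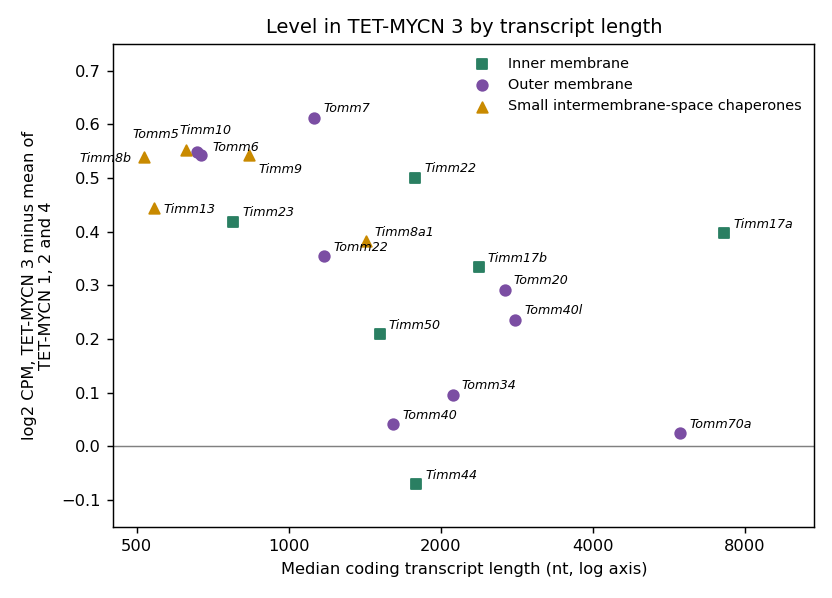
Log2 CPM in TET-MYCN 3 minus the mean of TET-MYCN 1, 2 and 4 against median coding transcript length (nucleotides, log axis) for the 20 tested genes, with markers for compartments. The 7 members of up to 1000 nucleotides lie at a median of 0.54 and the 13 longer ones at 0.29.

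TET-MYCN 3 also stood apart in its reads, with the highest share aligned to several places of the genome, 12.8% against 9.05% to 11.7% in the other 7 libraries, and the lowest share outside genes, 15.1% against 17.7% to 19.7%. Its summed rod markers (6261 CPM) and progenitor and mitosis markers (1711 CPM) were inside the range of the other TET-MYCN libraries. So were its bipolar (514 CPM) and lens (20.6 CPM) markers. Its cone (348 CPM), Müller glia (4537 CPM) and microglia (284 CPM) markers had the highest sums of the group, with TET-MYCN 4 close for microglia (281 CPM). With offsets for transcript length fitted per library, a setting chosen after seeing the data, 16 of 20 members were above 0 with a median of 0.092, and 0 passed. The small chaperones then had a median of 0.078 in place of 0.20, while Timm8a1 kept 0.48 (adjusted p = 0.156, edgeR's quasi-likelihood test) and Timm50 0.23 (adjusted p = 0.278). Without the libraries with the most multiply aligned reads, TET-MYCN 3 and Rb-null 1, 10 of 20 were above 0, with a median of 0.0074, and Timm8a1 was at 0.41.

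A list of 26 other import genes, covering the motor, peptidases, the disulfide relay, the outer-membrane assembly machinery and the matrix chaperonin, gave the family's surroundings. Of these, 22 had a log2 fold change above 0, with a median of 0.088, and 0 passed in either direction. Hspd1, which codes for the large chaperonin subunit that folds imported proteins, had 282, 201, 224 and 242 CPM in TET-MYCN libraries 1 to 4, against 184, 187, 169 and 179.7 CPM in Rb-null libraries 1 to 4, so every TET-MYCN library was above all Rb-null libraries (log2 fold change 0.40 ± 0.11, adjusted p = 0.182 in edgeR, against 0.0454 in DESeq2). Its co-chaperonin Hspe1 was at 69.3 ± 12.6 CPM in the TET-MYCN libraries, against 51.9 ± 4.24 CPM in Rb-null (log2 fold change 0.42 ± 0.14, adjusted p = 0.217). Gfer, the sulfhydryl oxidase that recharges the disulfide relay on which the small Timm chaperones depend, was at 25.8 ± 3.17 CPM in the TET-MYCN libraries, against 20.7 ± 0.572 CPM in Rb-null, again with no overlap (log2 fold change 0.32 ± 0.12, adjusted p = 0.243). Dnlz, an escort protein of the matrix Hsp70, was at 37.4 ± 5.01 CPM in the TET-MYCN libraries, against 31.1 ± 2.45 CPM in Rb-null (log2 fold change 0.27 ± 0.12, adjusted p = 0.318). In this list 3 genes had groups that did not overlap, all higher, against 4.36% of all genes tested, and the third was Hspa9, the Hsp70 of the import motor, named after its values were seen, with a log2 fold change of 0.20 ± 0.090 (adjusted p = 0.323). Hspd1 was highest in TET-MYCN 1 and not in TET-MYCN 3. Without TET-MYCN 3, 18 of 26 were above 0, with a median of 0.074.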

How the data were processed

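The authors deposited 1 table of raw counts per gene symbol for each library. The submitters' processing notes name build mm9, HTSeq 0.5.4p3, TopHat2 2.0.8b and CASAVA 1.8.2. Options, gene models and strandedness of the counting are not stated. Per the labels' protocols, Trizol RNA selected with oligo-dT went into NEBNext Ultra libraries. Reads without a gene (28.3% to 31.7% of each file) were kept out of library sizes.

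Counts were filtered with filterByExpr (15106 of 23284 genes), scaled by TMM and tested with edgeR 4.0.16 (quasi-likelihood F test, robust, no covariate; R 4.3.3), with Benjamini-Hochberg adjustment over all genes tested at 0.05. Log2 fold changes are TET-MYCN over Rb-null, and ± is the standard error for fold changes and the SD for levels. The procedure was tested on simulated data. Alternatives used DESeq2 1.42.0, limma-voom (limma 3.58.1), other scalings and filters, a replicate block, and fits without each library. Fits without 2 libraries (the crystallin-rich or the multiply aligned pair) and with offsets for transcript length (20 length bins, 86.7% of tested genes with a length) were added after seeing the data. Paired-gene ratios added 0.5 to each count and needed 10 counts in at least 4 libraries. Lengths, overlaps and copies came from GENCODE M21 (GRCm38), promoters from RefSeq (GRCm38.p6), and no coordinates of the counts' build were used. Libraries of a group differed by more than sampling noise. Among the tested members, values per library are given for the 3 with the smallest p in each compartment and for the paired genes. Of the other import genes the 4 with the smallest p were chosen to be named, Hspd1 per library and the rest by mean and SD. The members and lists were chosen with earlier results of these data known. A count of 3 was taken as the floor.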

Additional observations from a re-analysis of the deposited data

Results flagged for a closer look

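A library far from the rest of its group was found in 3 of the 46 sets of 4 values examined (20 genes and 3 gene ratios in each group), and chance gives about 1 in 20. Timm50 was at 72.0 CPM in Rb-null 3, against 89.7 to 92.2 CPM in the other Rb-null libraries. Tomm5 was at 26.2 CPM in Rb-null 4, against 20.2 to 21.1 CPM in the others, and Tomm7 was at 56.2 CPM in Rb-null 4, against 42.7 to 43.7 CPM. For these genes the Rb-null library in question moves the value: without it the log2 fold change was 0.18 for Timm50, 0.29 for Tomm5 and 0.33 for Tomm7, in place of 0.26, 0.21 and 0.23.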

How the results depend on the processing

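No Timm or Tomm gene passed under any of the 18 alternatives, and the lowest adjusted p was 0.0719 for Timm8a1 with DESeq2. Timm8a1, Timm9, Timm23, Timm50, Tomm5, Tomm7, Tomm22, Tomm34 and Tomm40 were above 0 in each of them. Leaving out 1 library gave a family median of 0.038 (without TET-MYCN 3) to 0.21 (without TET-MYCN 2), with 14 to 20 of 20 above 0. Over all genes the count called was 9 and changed to 17 without a filter, 539 with DESeq2, 0 by limma-voom (where 2262 had an unadjusted p under 0.05, against 2384 in edgeR), 0 without the crystallin-rich Rb-null 2 and 3, 41 without TET-MYCN 3 and Rb-null 1, and 0 to 230 without 1 library (230 without TET-MYCN 3, 132 without TET-MYCN 2, 1 without Rb-null 1 and 0 without any other). Of the other import genes 1, Hspd1, was called with DESeq2 (log2 fold change 0.39, adjusted p = 0.0454). With the replicate block 3 genes and 0 members were called. Deviations from the group means correlated at -0.29 to -0.040 between libraries of the same number. No pairing by number was seen, and these values cannot show that none exists.

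Small values changed sign. Leaving out 1 library gave -0.029 to 0.16 for Timm13, -0.041 to 0.17 for Timm22, -0.054 to 0.080 for Timm44, -0.049 to 0.20 for Timm8b, -0.029 to 0.12 for Tomm20, -0.083 to 0.044 for Tomm40l, -0.0055 to 0.24 for Tomm6 and -0.060 to 0.082 for Tomm70a, and a log2 ratio difference of -0.071 to 0.087 for Timm17a over Timm17b. Tomm70a was at -0.0021 with DESeq2's size factors, -0.0022 with DESeq2, -0.0011 with limma-voom and -0.0017 with the replicate block. Without TET-MYCN 3 and Rb-null 1 the values were -0.0014 for Timm10, -0.067 for Timm13, -0.011 for Timm17a, -0.013 for Timm17b, -0.10 for Timm22, -0.056 for Timm8b, -0.047 for Tomm20, -0.045 for Tomm6 and -0.0023 for Tomm70a. Without Rb-null 2 and 3 they were -0.044 for Timm8b, -0.0036 for Tomm20 and 0.0041 for Tomm40l, and with length offsets -0.020 for Timm13, -0.012 for Timm44 and -0.013 for Timm8b. The cause was not tested. With 4 libraries a group, the differences that changed sign are within the spread between libraries, and no other member passed either.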

Other observations

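A further 3 genes of the same machinery stand in the count tables under older symbols that the choice by name does not reach, matched through RefSeq synonyms. Fxc1 (now Timm10b), a small Timm protein of the TIM22 complex, was at 25.0 ± 4.33 CPM in the TET-MYCN libraries, against 20.9 ± 1.54 CPM in Rb-null (log2 fold change 0.26 ± 0.14, adjusted p = 0.384, edgeR's quasi-likelihood test, n = 4 each). It was highest in TET-MYCN 3, at 31.5 CPM. The log2 fold changes were 0.17 ± 0.12 for 1700034H14Rik (now Timm21), a subunit of the TIM23 complex, and -0.037 ± 0.086 for 1810026J23Rik (now Timm29), known in human cells as a subunit of the TIM22 complex, and neither passed.

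Among 14 regulators of mitochondrial biogenesis 9 had a log2 fold change above 0 and 5 below, and 0 passed. Peo1 (now Twnk), the mitochondrial DNA helicase, was at 38.8 ± 8.97 CPM in the TET-MYCN libraries, against 28.3 ± 3.86 CPM in Rb-null (log2 fold change 0.45 ± 0.17, adjusted p = 0.258). Tfam, which packages mitochondrial DNA and activates its transcription, was at 55.8 ± 5.74 CPM in the TET-MYCN libraries, against 48.1 ± 3.05 CPM in Rb-null (log2 fold change 0.21 ± 0.10, adjusted p = 0.341). The coactivators of the PGC-1 family did not share a direction. Ppargc1a and Ppargc1b had negative values, with Ppargc1a at 16.5 ± 3.66 CPM in the TET-MYCN libraries, against 23.7 ± 6.42 CPM in Rb-null (log2 fold change -0.52 ± 0.22, adjusted p = 0.301) and Ppargc1b at 24.8 ± 12.0 CPM in the TET-MYCN libraries, against 45.8 ± 23.9 CPM in Rb-null (log2 fold change -0.88 ± 0.44, adjusted p = 0.355). The third, Pprc1, named after its values were seen, had a positive value, at 45.2 ± 13.8 CPM in the TET-MYCN libraries, against 33.4 ± 5.94 CPM in Rb-null (log2 fold change 0.44 ± 0.22, adjusted p = 0.363). In the Rb-null group Ppargc1a and Ppargc1b were highest in Rb-null 3 and next in Rb-null 4, the libraries with the most rod marker reads, and the part of rod content in these values was not tested.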
